A study of Mus musculus with 3 samples.

Results

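Lag3, Cd160, Havcr2 and Tigit encode inhibitory receptors of T cells and NK cells, and their transcripts were followed across 3 populations of mouse CD8 T cells. The genes were chosen by name, with values of these arrays known, through every probe set that the platform annotation assigns to 1 of the 4 symbols alone. Of the 4 genes, 3 had a probe set. Lag3 and Havcr2 had 1 each and Cd160 had 4, which makes 6 of 45101 probe sets. Tigit had none under its symbol or gene identifier, so its level was not analysed here. What follows on these genes is a description of values, not a test.

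Each population was hybridised to 1 array as biotin-labelled cRNA from 6 µg of total RNA, and the tissue is labelled MLN, the mesenteric lymph node. The samples VILLIN-HA/CL4-TCR, then Villin-HA + CL4-TCR, and last CL4-TCR share a transgenic T cell receptor that directs CD8 T cells against influenza hemagglutinin, HA. In both HA samples the source name adds HA under the promoter of villin, which drives expression in gut epithelium, and CL4-TCR is the population without it. The submitters list CD8 T cells, CD8 T cells activated in the animal and regulatory CD8 T cells formed there, but the labels do not tie the last 2 to an HA sample. Age, the number of animals pooled and how the HA samples were prepared are unknown from the sources used here. With 1 array for each group there is no replicate error, no p-value is given, and a difference is between single arrays.

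Inhibitory receptors are switched on when T cells meet antigen, and they damp signals of the T cell receptor or of costimulatory partners. Lag3, a relative of the CD4 co-receptor, binds MHC class II. Cd160 binds the TNF receptor family member HVEM, encoded by Tnfrsf14, and is also found on NK cells and gut intraepithelial lymphocytes. Havcr2, or TIM-3, binds galectin-9, Ceacam1 and HMGB1, and besides T cells it is found on dendritic cells and macrophages. Tigit competes with the activating receptor Cd226 for Pvr and Nectin2. Such receptors accumulate together on exhausted CD8 T cells and are also found on activated and regulatory T cells.

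The promoters of Cd160 and Havcr2 are shown, genes that differ in the arrays on which they were measured above the floor defined below. The promoter set used held 0 entries for Lag3. The 1 entry for Tigit, whose level was not analysed, is not shown. Each window runs from 250 bases before to 50 after a transcription start in RefSeq, build GRCm38.p6, on the strand of the gene. Cd160 has 2 starts, at chr3:96829302-96829601 and chr3:96814472-96814771 on the minus strand, and Havcr2 has 1, at chr11:46454681-46454980 on the plus strand. Capitals mark letters that match a core motif of a T cell transcription factor family on either strand.
Cd160 start 1: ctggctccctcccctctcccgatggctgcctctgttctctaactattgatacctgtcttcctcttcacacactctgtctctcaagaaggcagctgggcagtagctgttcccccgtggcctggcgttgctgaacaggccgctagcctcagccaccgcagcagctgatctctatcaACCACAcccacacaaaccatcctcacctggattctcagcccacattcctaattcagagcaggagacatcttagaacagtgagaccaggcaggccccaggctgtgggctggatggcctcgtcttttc
Cd160 start 2: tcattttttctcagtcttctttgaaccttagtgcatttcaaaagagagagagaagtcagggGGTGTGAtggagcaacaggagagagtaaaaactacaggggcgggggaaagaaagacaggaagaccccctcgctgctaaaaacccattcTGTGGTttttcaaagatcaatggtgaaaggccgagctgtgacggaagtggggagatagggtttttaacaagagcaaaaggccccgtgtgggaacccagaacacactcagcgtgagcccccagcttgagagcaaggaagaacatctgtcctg
Havcr2: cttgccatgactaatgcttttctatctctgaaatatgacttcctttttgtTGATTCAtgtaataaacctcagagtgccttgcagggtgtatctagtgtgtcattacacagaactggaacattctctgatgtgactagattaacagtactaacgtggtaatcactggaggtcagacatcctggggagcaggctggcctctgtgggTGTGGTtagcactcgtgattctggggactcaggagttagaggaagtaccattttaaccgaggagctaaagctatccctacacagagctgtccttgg
The motifs searched were TGANTCA for AP-1, TGGAAA for NFAT, TGTGGT for RUNX, GGTGTGA for T-box factors and AAAGGTCA for NR4A receptors. No 2 of the matches shown overlap. The RUNX letters lie in all 3 windows, on the opposite strand in Cd160 start 1, and in 16.8% of the 32851 promoters of the same length. The T-box letters lie in Cd160 start 2 and in 3.98% of all promoters, and the AP-1 letters in Havcr2 and in 7.81%. The NFAT and NR4A letters, which 21.4% and 1.51% of all promoters hold, are in none of the 3 windows. A match shows letters only and was not tested as a binding site.

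Signals are the deposited MAS5 values on a linear scale, which follow probe brightness and cannot be compared between probe sets. Values under 31.7, the median over the 3 arrays together, were raised to that floor, and a probe set is measured in a comparison when at least 1 of its values exceeds it. A difference is called higher or lower from 2-fold upwards. Where 1 array lay at or below the floor, the fold given is a lower bound for this floor, and a higher floor makes it smaller.

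Lag3 was above the floor on both HA arrays and below it in CL4-TCR cells. Its signal was 269 in VILLIN-HA/CL4-TCR cells and 310.6 in Villin-HA + CL4-TCR cells, against 5.8 in CL4-TCR cells. This made it at least 8.49-fold higher in VILLIN-HA/CL4-TCR cells and at least 9.80-fold higher in Villin-HA + CL4-TCR cells, each against CL4-TCR. Differences at least as large in the same direction were held by 77 genes, Lag3 included (0.684% of those measured), in the first comparison and 112 genes (0.918%) in the second. Between the HA arrays Lag3 differed little. The difference of VILLIN-HA/CL4-TCR from Villin-HA + CL4-TCR was -0.21 on the log2 scale, and it became 0.06 with the arrays scaled to the same median and 0.08 when they were scaled on 6 T cell genes.

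Cd160 was higher in both HA populations than in CL4-TCR cells by all 4 of its probe sets, which differ in the size of the fold. The probe set with the highest mean, 1420066_s_at, read 1603 in VILLIN-HA/CL4-TCR cells and 2009 in Villin-HA + CL4-TCR cells, against 74 in CL4-TCR cells. It was 21.7-fold higher in VILLIN-HA/CL4-TCR cells and 27.1-fold higher in Villin-HA + CL4-TCR cells. Counting Cd160 itself, 11 genes (0.0977%) in the first and 23 genes (0.189%) in the second comparison had a difference at least as large. The suffix of its name marks a probe set that can match several transcripts.

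The other 3 Cd160 probe sets put the gene higher on both HA arrays too, by smaller folds. The probe set 1420396_at, designed on the RefSeq transcript, had signals of 327.9 in VILLIN-HA/CL4-TCR and 541.5 in Villin-HA + CL4-TCR cells, against 51.9 in CL4-TCR cells, folds of 6.32 in VILLIN-HA/CL4-TCR and 10.4 in Villin-HA + CL4-TCR cells. The probe set 1420067_at, made from the same clone as 1420066_s_at, read 69.3 in VILLIN-HA/CL4-TCR and 102.7 in Villin-HA + CL4-TCR cells, against 20 in CL4-TCR cells, folds of at least 2.19 in VILLIN-HA/CL4-TCR and at least 3.24 in Villin-HA + CL4-TCR cells. The probe set 1456847_at read 199.3 in VILLIN-HA/CL4-TCR and 85.9 in Villin-HA + CL4-TCR cells, against 37.6 in CL4-TCR cells, folds of 5.30 in VILLIN-HA/CL4-TCR and 2.28 in Villin-HA + CL4-TCR cells. CL4-TCR was lowest by all 4, but the call of 1456847_at for Villin-HA + CL4-TCR rests on the scaling, since its log2 difference of 1.19 became 0.99 with the arrays scaled to the same median. With a floor at the 65th percentile, 1420067_at was called in neither HA population, with bounds of 0.01 in VILLIN-HA/CL4-TCR and 0.58 in Villin-HA + CL4-TCR cells, and 1456847_at gave 0.32 in Villin-HA + CL4-TCR cells.

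The size of the Cd160 difference therefore depends on the probe set. For the 3 that exceeded the floor on each array compared, the log2 difference from CL4-TCR averaged 3.17 ± 1.11 in VILLIN-HA/CL4-TCR cells and 3.11 ± 1.80 in Villin-HA + CL4-TCR cells (SD, n = 3 probe sets). The pooled SD among probe sets that share a gene was 0.43 over 4175 genes in the first of these comparisons and 0.65 over 4181 genes in the second. Both SDs of Cd160 were thus larger than the pooled ones. The pooled SDs take in genes whatever the size of their difference, and genes that differ as much as Cd160 were not compared. Leaving out 1420066_s_at, the gene's log2 difference was 2.66 in VILLIN-HA/CL4-TCR and 3.38 in Villin-HA + CL4-TCR cells.

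The order of the HA arrays in Cd160 was not settled by these probe sets. The difference of VILLIN-HA/CL4-TCR from Villin-HA + CL4-TCR was -0.33 by 1420066_s_at, -0.57 by 1420067_at and -0.72 by 1420396_at, each short of 2-fold. By 1456847_at it was 1.21, a signal of 199.3 in VILLIN-HA/CL4-TCR cells against 85.9 in Villin-HA + CL4-TCR cells and a fold of 2.32. The 4 values averaged -0.10 ± 0.89 (SD, n = 4 probe sets), and the pooled SD between probe sets of 1 gene was 0.61 in this comparison.

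Havcr2 was above the floor in Villin-HA + CL4-TCR cells and in neither other population. It had a signal of 24.6 in VILLIN-HA/CL4-TCR cells and 145.9 in Villin-HA + CL4-TCR cells, against 3.6 in CL4-TCR cells. It was at least 4.60-fold higher in Villin-HA + CL4-TCR cells than in CL4-TCR cells, and 332 genes with Havcr2 among them (2.72% of those measured) had a difference at least as large. VILLIN-HA/CL4-TCR was at least 4.60-fold lower than Villin-HA + CL4-TCR, and 157 genes (1.30%) were as far or farther in that direction. Between VILLIN-HA/CL4-TCR and CL4-TCR no fold is given because both arrays lay below the floor. With no floor and 16 added to each signal, that log2 difference was 1.05. With a floor at the 35th percentile Havcr2 was measured there but not called.

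**Figure D1:**
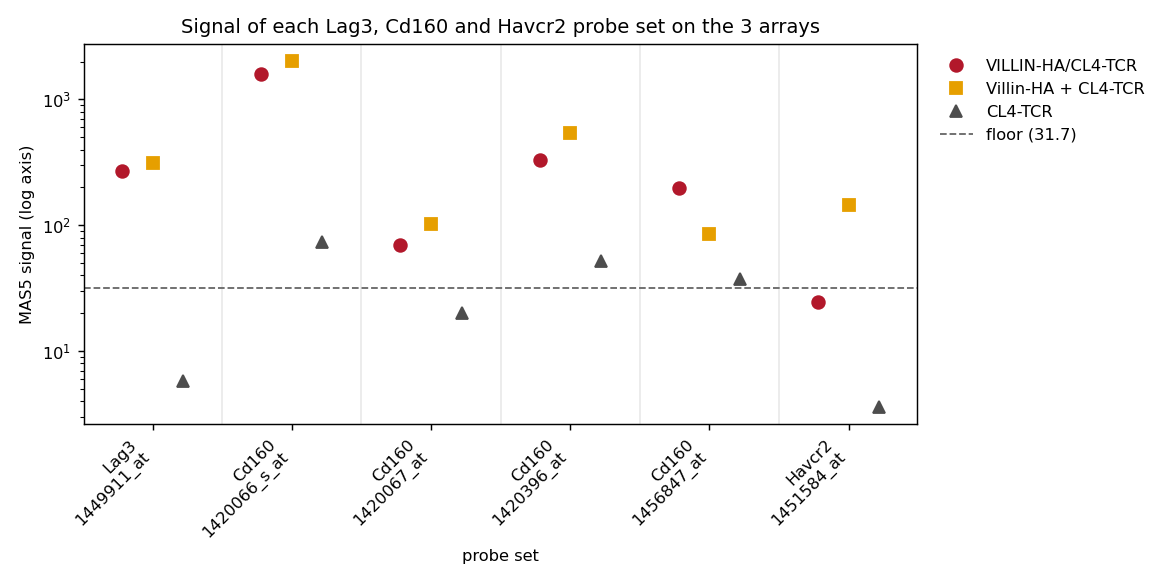
MAS5 signal (log axis) of the 6 probe sets of Lag3, Cd160 and Havcr2 on the VILLIN-HA/CL4-TCR, Villin-HA + CL4-TCR and CL4-TCR arrays, 1 point per array, with the floor of 31.7 dashed. The CL4-TCR point is the lowest for each probe set, and Havcr2 passes the floor in Villin-HA + CL4-TCR cells alone, at 145.9.

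Counted together, 5 of 5 measured probe sets were higher in VILLIN-HA/CL4-TCR cells than in CL4-TCR cells, and 0 lower, where 6.47% of all measured named probe sets were higher and 6.89% lower. Taking each gene by its brightest probe set on average, 2 of 2 measured were higher, against 7.43% of 11260 genes, and 0 lower, against 6.63%. In Villin-HA + CL4-TCR cells 6 of 6 probe sets and 3 of 3 genes were higher than in CL4-TCR cells, against 11.4% of named probe sets and 11.9% of 12196 genes, and none was lower, against 10.4% and 9.53%. VILLIN-HA/CL4-TCR against Villin-HA + CL4-TCR had 1 of 6 probe sets higher and 1 lower, against 6.49% and 9.30% of named probe sets, and 0 of 3 genes higher and 1 lower, against 6.13% and 8.95% of 12081 genes. At 3-fold, 0 of 6 probe sets were higher there, against 1.41% of named probe sets. The genes were chosen with these values known, so the counts carry no further weight. Both comparisons with CL4-TCR share that array.

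**Figure D2:**
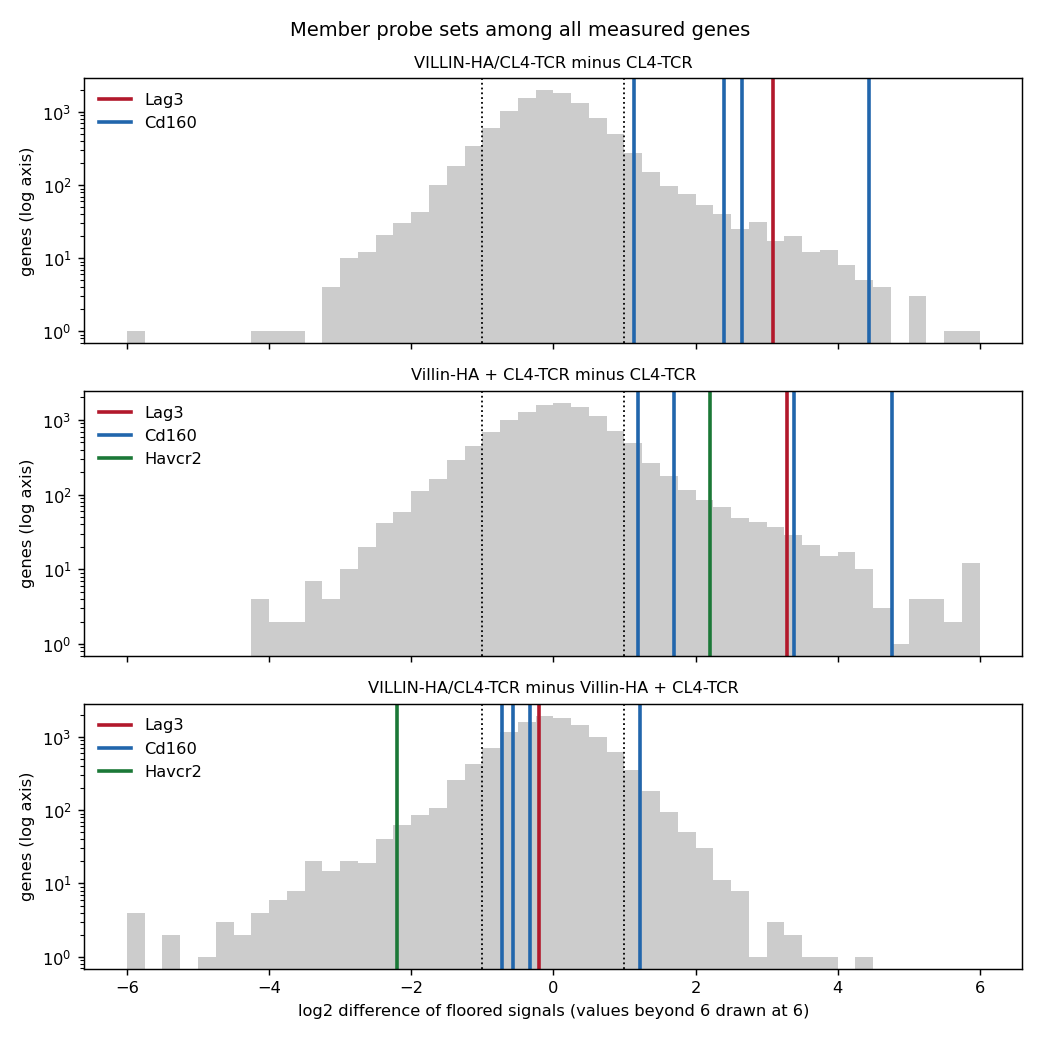
Number of genes (log axis) by log2 difference of floored signals in each comparison, in grey, with the measured probe sets of Lag3, Cd160 and Havcr2 as coloured lines and 2-fold dotted. Against CL4-TCR all lines lie above 2-fold on the higher side, and between the HA arrays they lie within 2-fold except Havcr2, at a bound of -2.20, and 1 Cd160 probe set, at 1.21.

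Several facts of the arrays stand beside these values. The trimmed mean is 150 on each array, and the log2 difference over all genes had medians of -0.04, 0.06 and -0.06 in the 3 comparisons. Scaling the arrays to the same median moved the median of Villin-HA + CL4-TCR minus CL4-TCR to -0.14, and made higher genes 38.2% of all calls there in place of 55.6%. For VILLIN-HA/CL4-TCR against Villin-HA + CL4-TCR the median became 0.19 and that share 67.3% in place of 40.7%. The 3′ to 5′ signal ratio of the Gapdh control probe sets, a sign of RNA quality, was 46.2 in VILLIN-HA/CL4-TCR cells and 3.35 in Villin-HA + CL4-TCR cells, against 18.4 in CL4-TCR cells. The same ratio for Actb was 2.46 in VILLIN-HA/CL4-TCR and 1.80 in Villin-HA + CL4-TCR cells, against 1.98 in CL4-TCR cells. Xist, expressed from the inactive X of females, read 2.5 in VILLIN-HA/CL4-TCR and 1339 in Villin-HA + CL4-TCR cells, against 5442.5 in CL4-TCR cells. The Y-linked gene Eif2s3y read 1496 in VILLIN-HA/CL4-TCR and 746.9 in Villin-HA + CL4-TCR cells, against 13.4 in CL4-TCR cells. The Villin-HA + CL4-TCR array thus carried transcripts of both, while the others carried 1 of them, so sex and group cannot be told apart. The part of RNA quality in the receptor values was not tested.

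By summed signal the arrays carried the CD8 T cell markers at similar strength. Of the 7 markers found, 7 lay above the floor on each array, with summed signals of 21963 in VILLIN-HA/CL4-TCR cells and 24273 in Villin-HA + CL4-TCR cells, against 22901 in CL4-TCR cells. Ptprc, which all leukocytes express, made up a large share of each sum, with 11459 in VILLIN-HA/CL4-TCR and 11082 in Villin-HA + CL4-TCR cells, against 11134 in CL4-TCR cells. By the brightest probe sets Cd2 was the 1 marker called, lower in VILLIN-HA/CL4-TCR cells. Of 5 Cd8a probe sets 1 was called, 1451673_at, with 203.6 in VILLIN-HA/CL4-TCR and 856.7 in Villin-HA + CL4-TCR cells, against 212.7 in CL4-TCR cells. In RNA of a bulk population, fewer cells that carry a transcript and less of it in each cell cannot be told apart.

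Other cells can express these receptors, so their markers are given beside them. For NK cells, which carry Cd160, 3 of 7 markers lay above the floor in VILLIN-HA/CL4-TCR and 5 in Villin-HA + CL4-TCR cells, against 2 in CL4-TCR cells, and the summed signals were 356.9 in VILLIN-HA/CL4-TCR and 2748 in Villin-HA + CL4-TCR cells, against 2382 in CL4-TCR cells. Ncr1, the defining NK receptor gene, was below the floor on all 3, with 24.8 in VILLIN-HA/CL4-TCR and 28 in Villin-HA + CL4-TCR cells, against 3.9 in CL4-TCR cells. Klrd1, an NK receptor chain that CD8 T cells also express, made up most of the sum on each array, with 189.5 in VILLIN-HA/CL4-TCR and 2071 in Villin-HA + CL4-TCR cells, against 2276 in CL4-TCR cells. Tyrobp, an adaptor of NK and myeloid receptors, was called higher on both HA arrays as Cd160 was, with 71.6 in VILLIN-HA/CL4-TCR and 99.2 in Villin-HA + CL4-TCR cells, against 32.3 in CL4-TCR cells. Klrk1, the NKG2D chain that CD8 T cells can also express, read 33.3 in VILLIN-HA/CL4-TCR and 425.1 in Villin-HA + CL4-TCR cells, against 14.4 in CL4-TCR cells. The part of NK cells in the Cd160 values was not tested. For gamma delta T cells, another source of Cd160, neither of the 2 markers found was above the floor on an HA array, and both were in CL4-TCR cells.

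For Havcr2, the cells in question are myeloid. Of 13 myeloid and dendritic cell markers, 8 lay above the floor on each HA array and 7 in CL4-TCR cells. Their summed signals were 1589 in VILLIN-HA/CL4-TCR and 1265 in Villin-HA + CL4-TCR cells, against 382 in CL4-TCR cells. By their brightest probe sets the lysozyme gene Lyz2, the receptor gene Csf1r and C1qb were highest in VILLIN-HA/CL4-TCR cells. Lyz2 read 817.3 in VILLIN-HA/CL4-TCR and 312.2 in Villin-HA + CL4-TCR cells, against 84.5 in CL4-TCR cells. Csf1r read 384.1 in VILLIN-HA/CL4-TCR and 125 in Villin-HA + CL4-TCR cells, against 40.9 in CL4-TCR cells. C1qb read 148.6 in VILLIN-HA/CL4-TCR and 44.6 in Villin-HA + CL4-TCR cells, against 18.1 in CL4-TCR cells. Other Csf1r probe sets differed: 1419873_s_at read 127.9 in VILLIN-HA/CL4-TCR and 120.2 in Villin-HA + CL4-TCR cells, and 1423593_a_at read 58.2 and 88.5. As Havcr2, other markers were highest in Villin-HA + CL4-TCR cells. Among them Cd68, a macrophage gene, read 49.1 in VILLIN-HA/CL4-TCR and 106.3 in Villin-HA + CL4-TCR cells, against 39.5 in CL4-TCR cells, the macrophage gene Adgre1 read 40.1 in VILLIN-HA/CL4-TCR and 64.6 in Villin-HA + CL4-TCR cells, against 33.3 in CL4-TCR cells, and Cd14, a receptor of monocytes, read 5.2 in VILLIN-HA/CL4-TCR and 50.8 in Villin-HA + CL4-TCR cells, against 5.3 in CL4-TCR cells. Against CL4-TCR, Cd68 was called there while Adgre1 and Cd14 were not. Itgam and Xcr1 were below the floor on all 3 arrays. The integrin gene Itgax, which activated T cells express too, read 43.5 in VILLIN-HA/CL4-TCR and 430.7 in Villin-HA + CL4-TCR cells, against 38.9 in CL4-TCR cells. The part of myeloid cells in the Havcr2 value was not tested.

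Transcripts foreign to lymphoid cells also appeared in Villin-HA + CL4-TCR cells. All 5 neutrophil markers found lay above the floor there, with a summed signal of 1727, and all 6 skeletal muscle markers, with 4600. In VILLIN-HA/CL4-TCR cells these sums were 99.2 and 78.7, with 1 marker of each list above the floor, and in CL4-TCR cells they were 78.9 and 85.2, with 0 and 1 above it. The part of these transcripts in the Havcr2 value was not tested. Mast cells, which carry Havcr2 too, had 1 of 6 markers above the floor in VILLIN-HA/CL4-TCR, 2 in Villin-HA + CL4-TCR and 0 in CL4-TCR cells. Mast cell sums were 262.1 in VILLIN-HA/CL4-TCR and 139.2 in Villin-HA + CL4-TCR cells, against 46.9 in CL4-TCR cells. By its brighter probe set Kit was called higher on both HA arrays, with 196.5 in VILLIN-HA/CL4-TCR and 87.2 in Villin-HA + CL4-TCR cells, against 14.9 in CL4-TCR cells. The proteases Mcpt1 and Mcpt4 were below the floor on all 3. The part of mast cells in the Havcr2 value was not tested. Of 4 markers of plasmacytoid dendritic cells, which carry Lag3, 2 lay above the floor on each array, with sums of 163.5 in VILLIN-HA/CL4-TCR and 304.8 in Villin-HA + CL4-TCR cells, against 220.2 in CL4-TCR cells, and Siglech was below it on all 3. Of 4 markers of CD4 and regulatory CD4 T cells, 1 lay above the floor on each array, with sums of 89.8 in VILLIN-HA/CL4-TCR and 133 in Villin-HA + CL4-TCR cells, against 103.6 in CL4-TCR cells, and Cd4 itself was below it on all 3. The 1 above it on the HA arrays was Foxp3, the defining factor of regulatory T cells, with 38.2 in VILLIN-HA/CL4-TCR and 86.4 in Villin-HA + CL4-TCR cells, against 29.6 in CL4-TCR cells, at least 2.73-fold higher in Villin-HA + CL4-TCR cells. The submitters list regulatory CD8 T cells among the populations, and which cells carried Foxp3 was not tested. The part of Foxp3 in the Havcr2 value was not tested either. B cell markers summed to 411 in VILLIN-HA/CL4-TCR and 324.9 in Villin-HA + CL4-TCR cells, against 203.3 in CL4-TCR cells, and epithelial markers to 117 in VILLIN-HA/CL4-TCR and 194.8 in Villin-HA + CL4-TCR cells, against 158.4 in CL4-TCR cells.

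**Figure D3:**
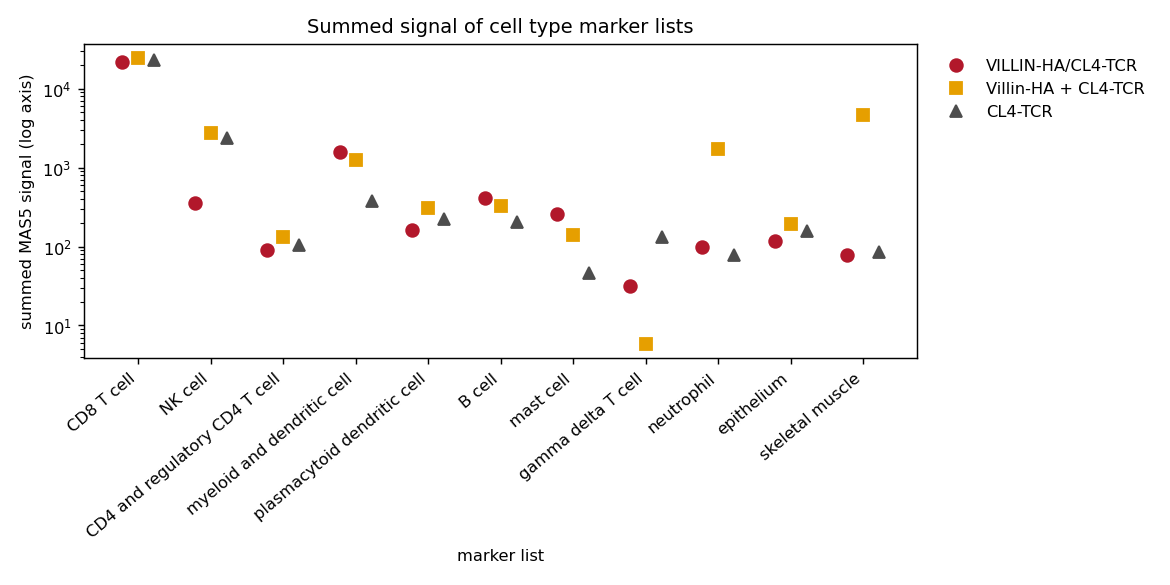
Summed MAS5 signal (log axis) of each marker list on the VILLIN-HA/CL4-TCR, Villin-HA + CL4-TCR and CL4-TCR arrays, 1 point per array. CD8 T cell sums lie close together, while the neutrophil and skeletal muscle sums of 1727 and 4600 in Villin-HA + CL4-TCR cells stand far above those of the other arrays.

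The ligands of the receptors were taken from a list of 14 genes, of which 13 had a probe set. Relative to CL4-TCR, 3 of 9 measured ligands were higher in VILLIN-HA/CL4-TCR cells and 0 lower, where 7.43% of all genes were higher and 6.63% lower, and their log2 differences had a median of -0.11 beside -0.04 over all genes. Among the same 9, Villin-HA + CL4-TCR cells had 5 higher and 1 lower, where 11.9% of all genes were higher and 9.53% lower, with a median of 1.40 against 0.06. VILLIN-HA/CL4-TCR against Villin-HA + CL4-TCR had 1 of 8 higher and 2 lower, where 6.13% of all genes were higher and 8.95% lower, with a median of -0.64 against -0.06. These ligands act between cells, and several of them are made by cells other than T cells.

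Lag3 ligands, the largest group in the list, were the ones most often higher, with each MHC class II gene counted singly. The MHC class II genes, products of antigen-presenting cells, were higher on the HA arrays in most readings. H2-Aa read 397.5 in VILLIN-HA/CL4-TCR and 524.6 in Villin-HA + CL4-TCR cells, against 165.7 in CL4-TCR cells, folds of 2.40 in VILLIN-HA/CL4-TCR and 3.17 in Villin-HA + CL4-TCR cells. H2-Eb1 read 184.3 in VILLIN-HA/CL4-TCR and 280.9 in Villin-HA + CL4-TCR cells, against 67.5 in CL4-TCR cells, folds of 2.73 in VILLIN-HA/CL4-TCR and 4.16 in Villin-HA + CL4-TCR cells. H2-Ab1 read 159.3 in VILLIN-HA/CL4-TCR and 269 in Villin-HA + CL4-TCR cells, against 101.6 in CL4-TCR cells, and its 1.57-fold difference in VILLIN-HA/CL4-TCR cells was not called, while its 2.65-fold difference in Villin-HA + CL4-TCR cells was. The summed myeloid and B cell marker signals given above were higher on the same arrays, and their part in the class II values was not tested. Lgals3, encoding galectin-3, read 331.9 in VILLIN-HA/CL4-TCR and 3129 in Villin-HA + CL4-TCR cells, against 11.4 in CL4-TCR cells, at least 10.5-fold higher in VILLIN-HA/CL4-TCR and at least 98.7-fold higher in Villin-HA + CL4-TCR cells. Fgl1 and Clec4g, further reported ligands of Lag3, were below the floor on all 3 arrays.

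The ligand gene of Cd160 was not higher on the HA arrays. Tnfrsf14, which encodes HVEM, had signals of 74.3 in VILLIN-HA/CL4-TCR cells and 26.6 in Villin-HA + CL4-TCR cells, against 80.4 in CL4-TCR cells. Villin-HA + CL4-TCR was thus at least 2.54-fold lower than CL4-TCR, and VILLIN-HA/CL4-TCR at least 2.34-fold higher than Villin-HA + CL4-TCR. Both bounds come from 1 probe set with signals near the floor, and they were not recomputed with a higher floor. Both Cd160 and Tnfrsf14 exceeded the floor in VILLIN-HA/CL4-TCR and in CL4-TCR cells, while only Cd160 did in Villin-HA + CL4-TCR cells.

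The galectin-9 ligand of Havcr2 was highest on the array on which Havcr2 itself was above the floor. Lgals9 read 164.8 in VILLIN-HA/CL4-TCR cells and 803 in Villin-HA + CL4-TCR cells, against 186.3 in CL4-TCR cells. It was 4.31-fold higher in Villin-HA + CL4-TCR cells than in CL4-TCR cells, and VILLIN-HA/CL4-TCR was 4.87-fold lower than Villin-HA + CL4-TCR. Ceacam1, a cell adhesion ligand, had signals of 9.8 in VILLIN-HA/CL4-TCR and 32 in Villin-HA + CL4-TCR cells, against 51.3 in CL4-TCR cells, and was not called. Hmgb1 was not analysed here.

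Although Tigit itself could not be read, its ligands and rivals could. Pvr, its main ligand gene, read 67.1 in VILLIN-HA/CL4-TCR and 107.6 in Villin-HA + CL4-TCR cells, against 90.2 in CL4-TCR cells, and was not called by its brightest probe set. Of the 7 Pvr probe sets, 1423904_a_at read 68.7 in VILLIN-HA/CL4-TCR and 71.5 in Villin-HA + CL4-TCR cells, against 29.7 in CL4-TCR cells, which is a log2 bound of 1.12 for VILLIN-HA/CL4-TCR and 1.17 for Villin-HA + CL4-TCR. Nectin2 was above the floor in CL4-TCR cells alone by its brighter probe set, with 20.2 in VILLIN-HA/CL4-TCR and 29.9 in Villin-HA + CL4-TCR cells, against 37.5 in CL4-TCR cells. By its other probe set, 1424456_at, it passed the floor in Villin-HA + CL4-TCR cells alone, with 23.1 in VILLIN-HA/CL4-TCR and 45.9 in Villin-HA + CL4-TCR cells, against 14.6 in CL4-TCR cells, and neither was called. Nectin3 and Nectin4 were below the floor on all 3. Cd226, the activating receptor for the same ligands, read 106.2 in VILLIN-HA/CL4-TCR and 53.3 in Villin-HA + CL4-TCR cells, against 100.8 in CL4-TCR cells. Its log2 difference of -0.92 for Villin-HA + CL4-TCR minus CL4-TCR fell short of 2-fold and passed it with the arrays scaled to the same median. Cd96, a further receptor for Pvr, read 1970 in VILLIN-HA/CL4-TCR and 2029 in Villin-HA + CL4-TCR cells, against 1466 in CL4-TCR cells, and was not called.

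Receptors that share a ligand or a family with the 4 genes were listed together with 1 cytokine. In VILLIN-HA/CL4-TCR cells against CL4-TCR, 1 of 5 measured members was higher and 0 lower, beside 7.43% and 6.63% of all genes. In Villin-HA + CL4-TCR cells 1 of 4 was higher and 0 lower, beside 11.9% and 9.53% of all genes. The medians of the list were 0.43 and 0.10, against -0.04 and 0.06 over all genes. The 1 called in both was Tnfsf14, the cytokine LIGHT that binds HVEM as Cd160 does. It had signals of 135.2 in VILLIN-HA/CL4-TCR and 85.3 in Villin-HA + CL4-TCR cells, against 29.4 in CL4-TCR cells. With signals as deposited, none of the receptors in the list was called against CL4-TCR. Btla, an inhibitory receptor for HVEM, read 1741 in VILLIN-HA/CL4-TCR and 945.1 in Villin-HA + CL4-TCR cells, against 1144 in CL4-TCR cells, and was not called. VILLIN-HA/CL4-TCR against Villin-HA + CL4-TCR had 0 of 5 called, beside 6.13% of all genes higher and 8.95% lower. With the arrays scaled to the same median, Btla and Cd226 were higher there. Of the TIM family, Havcr1 and Timd2 were below the floor on all 3 arrays, and Timd4 was above it in VILLIN-HA/CL4-TCR cells alone, at 38.6.

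**Figure D4:**
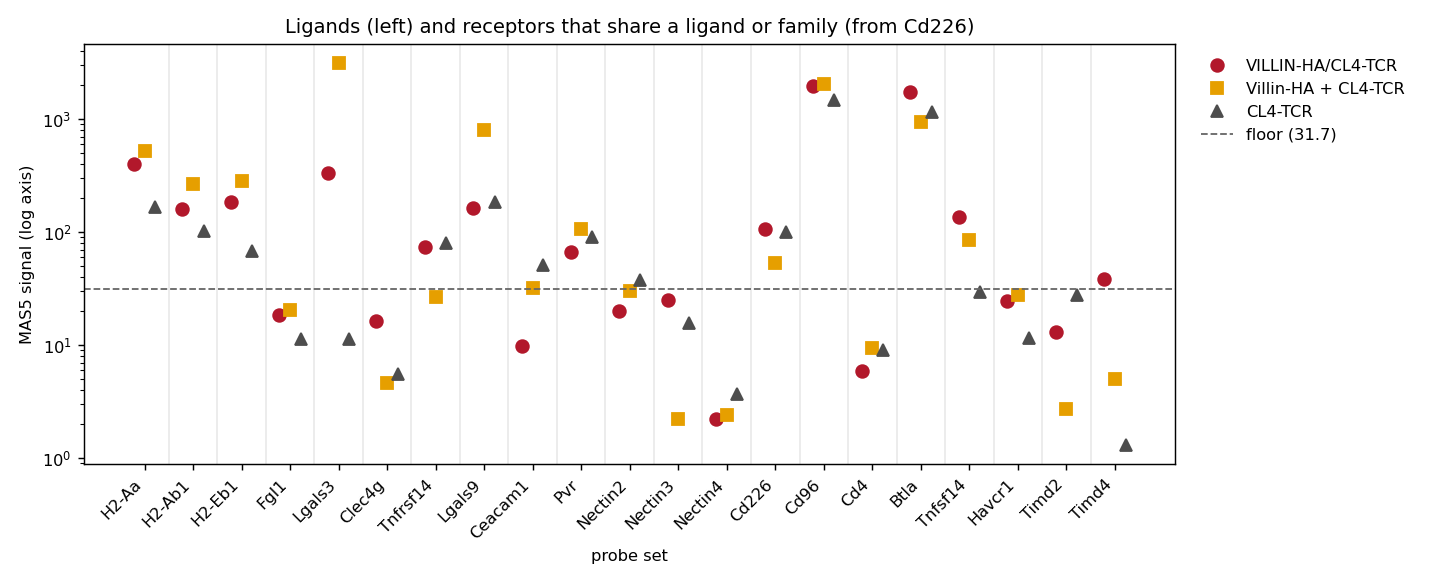
MAS5 signal (log axis) of the ligand genes and, from Cd226 onwards, of receptors that share a ligand or family, each by its brightest probe set, on the VILLIN-HA/CL4-TCR, Villin-HA + CL4-TCR and CL4-TCR arrays, with the floor of 31.7 dashed. Tnfsf14, drawn among the receptors, encodes a cytokine. Lgals3 spreads widely, with 331.9 in VILLIN-HA/CL4-TCR and 3129 in Villin-HA + CL4-TCR cells, against 11.4 in CL4-TCR cells, while Tnfrsf14 drops below the floor in Villin-HA + CL4-TCR cells.

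Transcripts of proteins that carry or end the signals of these receptors were within 2-fold by the brightest probe set of each gene, but not by all probe sets. In the 3 comparisons, in the order used above, 7.43%, 11.9% and 6.13% of all genes were higher and 6.63%, 9.53% and 8.95% lower. Of 8 measured genes for signalling and shedding partners, 0 were called in any of the 3. Their medians were -0.33, -0.18 and -0.15 beside -0.04, 0.06 and -0.06 over all genes. The largest differences of these partners in VILLIN-HA/CL4-TCR minus CL4-TCR were 0.81 for Ptpn11 and -0.66 for Ptpn6, the phosphatases SHP-2 and SHP-1. They were followed by -0.60 for Inpp5d, the lipid phosphatase recruited by Tigit. Adam10, a protease that sheds Lag3 and Havcr2, had signals of 1286 in VILLIN-HA/CL4-TCR and 1746 in Villin-HA + CL4-TCR cells, against 978.8 in CL4-TCR cells, and its difference of 0.84 in Villin-HA + CL4-TCR cells was not called. Dimmer probe sets of 3 genes passed 2-fold there, 1450105_at of Adam10 with a log2 difference of 1.89, 1424195_a_at of Inpp5d with 1.17 and 1427699_a_at of Ptpn11 with 1.20. VILLIN-HA/CL4-TCR against Villin-HA + CL4-TCR had -1.14 for that Adam10 probe set and -1.35 for that of Inpp5d. Bag6, which holds the tail of Havcr2, read 313.1 in VILLIN-HA/CL4-TCR and 321.8 in Villin-HA + CL4-TCR cells, against 373.4 in CL4-TCR cells.

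Other inhibitory receptors split between the HA arrays. Relative to CL4-TCR, VILLIN-HA/CL4-TCR cells had 2 of 10 measured receptors higher, Pdcd1 and Ctla4, and 1 lower, Lair1, a collagen receptor, with a median of 0.25. Over all genes 7.43% were higher and 6.63% lower, with a median of -0.04. Villin-HA + CL4-TCR cells had 5 of 10 higher and 0 lower, with a median of 1.71, where 11.9% of all genes were higher and 9.53% lower, with a median of 0.06. Scaling the arrays to the same median added Cd5 and Vsir as lower there. Vsir, the gene of the checkpoint receptor VISTA, was lower on both HA arrays by its other probe set, 1416619_at, which read 381.1 in VILLIN-HA/CL4-TCR and 368.8 in Villin-HA + CL4-TCR cells, against 872.3 in CL4-TCR cells. Lair1 was called lower in VILLIN-HA/CL4-TCR cells by its brightest probe set and missed the call by another, 1430447_a_at, at -0.99. In Villin-HA + CL4-TCR cells Lair1 was called lower by 1439067_at alone, at -1.11. Pdcd1, the gene of PD-1, read 614 in VILLIN-HA/CL4-TCR and 358.9 in Villin-HA + CL4-TCR cells, against 53.6 in CL4-TCR cells. Ctla4, which competes with CD28, read 449.3 in VILLIN-HA/CL4-TCR and 4180 in Villin-HA + CL4-TCR cells, against 16.9 in CL4-TCR cells, at least 14.2-fold higher in VILLIN-HA/CL4-TCR and at least 132-fold higher in Villin-HA + CL4-TCR cells. The study is known to have picked Pdcd1 from these arrays, so its call is not independent evidence.

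The 3 others called in Villin-HA + CL4-TCR cells lay near or below the floor in VILLIN-HA/CL4-TCR cells by their brightest probe sets. Klrc1, the NKG2A chain, read 28.5 in VILLIN-HA/CL4-TCR and 539.2 in Villin-HA + CL4-TCR cells, against 4.8 in CL4-TCR cells. Cd244a, a SLAM family receptor, read 32.1 in VILLIN-HA/CL4-TCR and 174.9 in Villin-HA + CL4-TCR cells, against 11.2 in CL4-TCR cells, and Entpd1, the ectoenzyme CD39, read 37.4 in VILLIN-HA/CL4-TCR and 177.7 in Villin-HA + CL4-TCR cells, against 9.8 in CL4-TCR cells. Other probe sets were closer between the HA arrays. For Entpd1, 1450939_at read 48.2 in VILLIN-HA/CL4-TCR and 64.3 in Villin-HA + CL4-TCR cells, against 11.7 in CL4-TCR cells, and for Cd244a, 1426120_a_at read 25.5 in VILLIN-HA/CL4-TCR and 46.9 in Villin-HA + CL4-TCR cells, against 2.5 in CL4-TCR cells. In VILLIN-HA/CL4-TCR against Villin-HA + CL4-TCR, 6.13% of all genes were higher and 8.95% lower. Of the 11 receptors measured there, 1 was higher, Cd5, and 5 were lower, Ctla4, Cd244a, Lair1, Klrc1 and Entpd1. With the arrays scaled to the same median, 3 were higher, Cd5, Btla and Pdcd1, and the same 5 lower.

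Transcription factors linked to inhibitory receptors had 9 of 14 measured members higher and 2 lower, Eomes and Nfatc2, in VILLIN-HA/CL4-TCR cells against CL4-TCR, with a median of 2.34, where 7.43% of all genes were higher and 6.63% lower, with a median of -0.04. Villin-HA + CL4-TCR cells had 12 of 16 higher and 1 lower, with a median of 2.05, where 11.9% of all genes were higher and 9.53% lower, with a median of 0.06, and scaling to the same median took Nfatc1 from the 12. The orphan receptor Nr4a1, induced by T cell receptor signals, read 1608 in VILLIN-HA/CL4-TCR and 1105 in Villin-HA + CL4-TCR cells, against 106.8 in CL4-TCR cells, and was 15.1-fold higher in VILLIN-HA/CL4-TCR and 10.3-fold higher in Villin-HA + CL4-TCR cells. Tox2, a relative of the exhaustion factor Tox, was 15.7-fold higher in VILLIN-HA/CL4-TCR and 41.1-fold higher in Villin-HA + CL4-TCR cells by a probe set open to several transcripts, and its other probe set was above the floor in Villin-HA + CL4-TCR cells alone, at 56.7. Irf4, another factor induced by receptor signals, read 886.9 in VILLIN-HA/CL4-TCR and 338.8 in Villin-HA + CL4-TCR cells, against 49.6 in CL4-TCR cells. Eomes, a T-box factor that memory CD8 T cells need, was lower on both HA arrays, at 184.6 in VILLIN-HA/CL4-TCR and 91.4 in Villin-HA + CL4-TCR cells, against 992.6 in CL4-TCR cells.

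Within the same list some factors were called on 1 HA array only. Havcr2 was called on 1 as well, and was not measured between VILLIN-HA/CL4-TCR and CL4-TCR. Nfil3, reported in mouse T cells as an inducer of Havcr2, read 2.6 in VILLIN-HA/CL4-TCR and 140.1 in Villin-HA + CL4-TCR cells, against 2.8 in CL4-TCR cells, and the repressor Prdm1 read 23.1 in VILLIN-HA/CL4-TCR and 214.5 in Villin-HA + CL4-TCR cells, against 28.7 in CL4-TCR cells. Batf, an AP-1 family partner, read 203.2 in VILLIN-HA/CL4-TCR and 545.6 in Villin-HA + CL4-TCR cells, against 165.4 in CL4-TCR cells. Egr2, a factor linked to anergy and to Lag3 in mouse T cells, went the other way, with 1693 in VILLIN-HA/CL4-TCR and 206.1 in Villin-HA + CL4-TCR cells, against 217.3 in CL4-TCR cells. In VILLIN-HA/CL4-TCR against Villin-HA + CL4-TCR, 6.13% of all genes were higher and 8.95% lower. Of 16 factors, 3 were higher there, Egr2, Irf4 and Eomes, and 7 were lower. The lower ones were led by Bhlhe40, a regulator of activated T cells (10.2-fold), Prdm1 (at least 6.77-fold) and Nr4a2, an Nr4a1 relative (5.47-fold). With the arrays scaled to the same median Nr4a3 and Tox were also higher and Maf was no longer lower. Probe sets of Nr4a2 disagreed: 3 others were lower too, by 4.30-fold to 4.35-fold, while 1433422_at and 1433423_at, near the floor, gave log2 bounds of 0.24 and 0.02. Other probe sets gave another call than the brightest for 6 of the factors in that comparison, Tox, Tox2, Nr4a2, Nfatc1, Irf4 and Maf, and, relative to CL4-TCR, for 2 of them, Nr4a2 and Nfatc1, in VILLIN-HA/CL4-TCR cells and for 5, all but Tox, in Villin-HA + CL4-TCR cells.

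**Figure D5:**
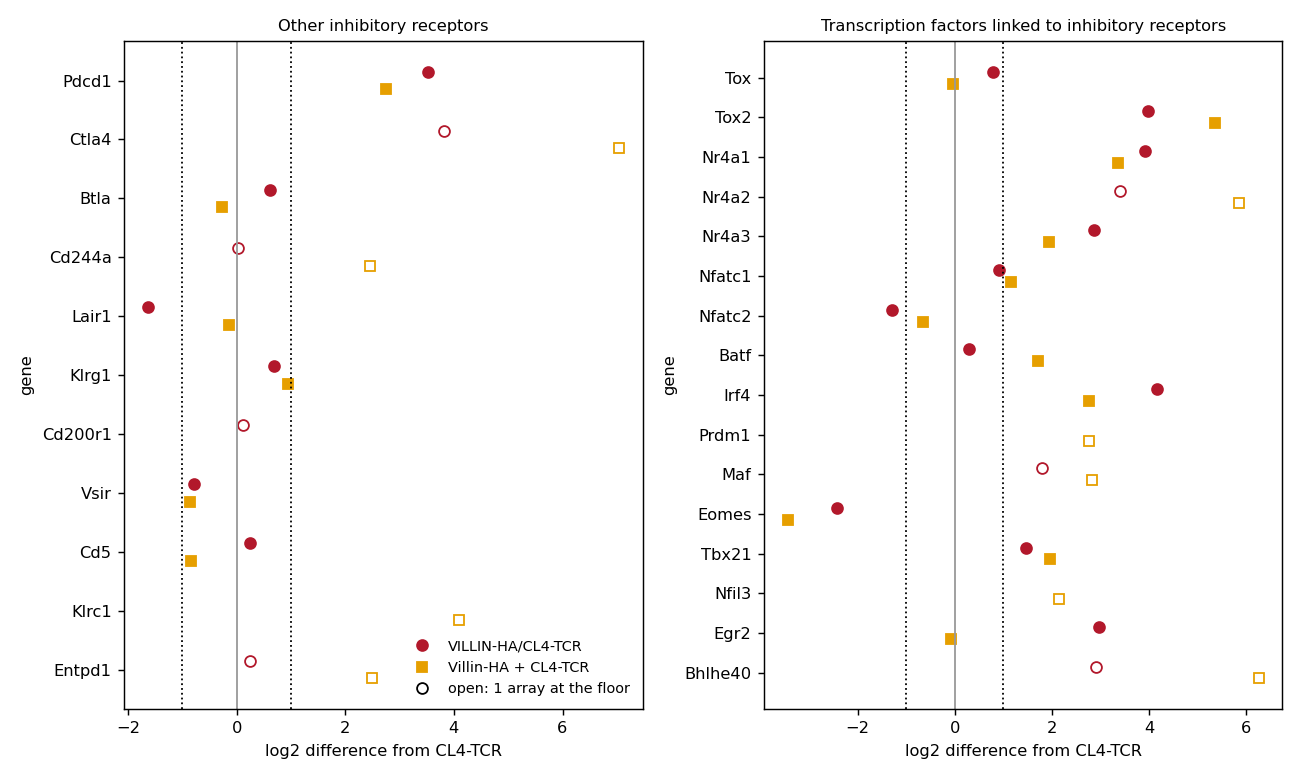
Log2 difference from CL4-TCR of other inhibitory receptors and of transcription factors linked to them, for VILLIN-HA/CL4-TCR (circles) and Villin-HA + CL4-TCR (squares), with open symbols where 1 array was at the floor and 2-fold dotted. Klrc1, Prdm1 and Nfil3 have a Villin-HA + CL4-TCR point only, and Egr2 stands at 2.96 for VILLIN-HA/CL4-TCR and -0.08 for Villin-HA + CL4-TCR.

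The genes with signals nearest to those of each receptor were found by Euclidean distance of the floored log2 signals on the 3 arrays, among 12516 genes above the floor on at least 1 array. Nearest to Lag3 were Rad54l, Ect2, Bub1, Kntc1 and Brca1, at distances of 0.13 to 0.18. Bub1, a kinase of the mitotic checkpoint, read 289.5 in VILLIN-HA/CL4-TCR and 336.6 in Villin-HA + CL4-TCR cells, against 6.5 in CL4-TCR cells. Nearest to Cd160 were Top2a, Cdca8, Pclaf, Tox2 and Rrm2, at 0.69 to 0.97, and Top2a, a DNA topoisomerase, read 1184 in VILLIN-HA/CL4-TCR and 1532 in Villin-HA + CL4-TCR cells, against 57.6 in CL4-TCR cells. Nearest to Havcr2 were Clu, Eef1a2, Nfil3, Myh2 and Zdhhc12, at 0.04 to 0.07. Since Havcr2 passed the floor on 1 array, that distance rests almost wholly on the Villin-HA + CL4-TCR signal, and Myh2 is a myosin gene of skeletal muscle. The distance takes in the level as well as the pattern, so it favours probe sets of like brightness, and a gene of the same pattern read by brighter or dimmer probes is not among them.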

How the data were processed

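Total RNA was extracted with an RNeasy kit and hybridised as biotinylated cRNA, per the labels' protocols. The deposited intensity values are MAS5 signals, per the submitters' processing notes, which name no version. No source used here gives the background settings, and present or absent calls were not used. Each of the 3 groups, taken from the source name, holds 1 array, which limits the precision.

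Probe sets were named through the platform annotation, updated by Entrez gene identifier to the RefSeq table of GRCm38.p6. Of 45101 probe sets, 34958 had 1 symbol (34754 identifiers matched), 932 had several and 9211 had none. Each of 18194 genes was read from its probe set of highest mean signal. The floor of 31.7 and the 2-fold call are explained with the results. Python 3.11.15 with pandas 2.3.3 was used.

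The genes and lists were chosen with earlier results of these data known. Of 128 listed genes, 117 had a probe set. Named were all receptor probe sets, all ligands and related receptors, up to 4 genes per comparison with the largest differences in each other list, and the 5 nearest genes of each receptor. Alternatives were the floor, added constant, scaling, probe set choice and fold. Genes given beyond that rule, such as Bag6, Batf, Lair1, other genes named in counts of calls, and marker genes, were chosen after their values were seen.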

Additional observations from a re-analysis of the deposited data

How the results depend on the processing

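No paired analysis was possible because each group has 1 array, and no array could be left out. Counts of called receptor probe sets and genes stayed within 1.5 times of those reported under the alternatives run, with 1 exception: at a 3-fold call, VILLIN-HA/CL4-TCR against Villin-HA + CL4-TCR had 0 in place of 1 of 6 probe sets higher. Of 205 single values recomputed, 196 kept their side of the threshold and 9 fell short of it, all of them of the Cd160 probe sets 1420067_at and 1456847_at. Some of the 205 repeat others or could not change, so the 196 overstate the stability. Lag3 and Havcr2 have 1 probe set each, so their gene values equal its values whatever probe set choice was made. For 1456847_at, Villin-HA + CL4-TCR minus CL4-TCR was 1.19 and became 0.32 under a 65th percentile floor, 0.93 with 16 added and no floor, 0.99 with the arrays scaled to the same median and 0.97 with scaling on 6 T cell genes, an alternative chosen after seeing the data. For 1420067_at, the 65th percentile floor gave 0.01 for VILLIN-HA/CL4-TCR and 0.58 for Villin-HA + CL4-TCR, each minus CL4-TCR, because it raises the CL4-TCR value. Lag3 kept its calls, from 1.97 to 4.04 for VILLIN-HA/CL4-TCR minus CL4-TCR as the floor was moved. Havcr2 on Villin-HA + CL4-TCR ranged from 1.09 to 3.15. The recomputed values are those measured in the main run, which leaves out Havcr2 in VILLIN-HA/CL4-TCR minus CL4-TCR. With 16 added and no floor that difference was 1.05, past 2-fold, and 3 of 3 receptor genes were higher. With a floor at the 35th percentile Havcr2 was also measured there but not called, and 2 of 3 receptor genes were higher. Signals near the floor limit what can be said of low transcripts.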

Other observations

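The genes next to each receptor on its chromosome, 2 protein-coding genes on either side in the RefSeq order, were read as well, a choice made after the receptor values were seen. Beside Lag3 on chromosome 6, Cd4 was below the floor on all 3 arrays, while Ptms, which encodes parathymosin, read 292.9 in VILLIN-HA/CL4-TCR cells and 399.3 in Villin-HA + CL4-TCR cells, against 103.5 in CL4-TCR cells. The neighbour Gpr162, an orphan receptor gene, read 68 in VILLIN-HA/CL4-TCR and 75.1 in Villin-HA + CL4-TCR cells, against 36.7 in CL4-TCR cells, and Mlf2 read 101 in VILLIN-HA/CL4-TCR and 278 in Villin-HA + CL4-TCR cells, against 158 in CL4-TCR cells. Against CL4-TCR, Gpr162 passed 2-fold in Villin-HA + CL4-TCR cells alone, at 1.03, and Mlf2 on neither HA array. Beside Cd160 on chromosome 3, Polr3c, a subunit of RNA polymerase III, read 255.5 in VILLIN-HA/CL4-TCR and 729.6 in Villin-HA + CL4-TCR cells, against 228 in CL4-TCR cells, a log2 difference from CL4-TCR of 1.68 in Villin-HA + CL4-TCR cells. The ubiquitin ligase gene Rnf115 read 1573 in VILLIN-HA/CL4-TCR and 1594 in Villin-HA + CL4-TCR cells, against 1288 in CL4-TCR cells, Gpr89 read 322.7 in VILLIN-HA/CL4-TCR and 295.6 in Villin-HA + CL4-TCR cells, against 180.8 in CL4-TCR cells, and Pdzk1 was below the floor on all 3 arrays. Beside Havcr2 on chromosome 11, Fam71b read 60.9 in VILLIN-HA/CL4-TCR and 138.5 in Villin-HA + CL4-TCR cells, against 71.5 in CL4-TCR cells, Gm12169 read 16.1 in VILLIN-HA/CL4-TCR and 34.3 in Villin-HA + CL4-TCR cells, against 6.2 in CL4-TCR cells, and BC053393 read 2.3 in VILLIN-HA/CL4-TCR and 32.5 in Villin-HA + CL4-TCR cells, against 12.4 in CL4-TCR cells. These 3 were highest in Villin-HA + CL4-TCR cells, but unlike Havcr2 none was called there against CL4-TCR. Their log2 differences were 0.95 for Fam71b, and bounds of 0.11 for Gm12169 and 0.04 for BC053393, whose signals lay just above the floor. Med7, a subunit of the Mediator complex, read 373.7 in VILLIN-HA/CL4-TCR and 243.3 in Villin-HA + CL4-TCR cells, against 256.3 in CL4-TCR cells. Around Tigit on chromosome 16, Zbtb20, a zinc finger repressor, had log2 differences from CL4-TCR of -0.80 in VILLIN-HA/CL4-TCR and -1.03 in Villin-HA + CL4-TCR cells. Qtrt2 read 551.9 in VILLIN-HA/CL4-TCR and 227.8 in Villin-HA + CL4-TCR cells, against 375 in CL4-TCR cells, Gap43 read 2.6 in VILLIN-HA/CL4-TCR and 32 in Villin-HA + CL4-TCR cells, against 9 in CL4-TCR cells, and Drd3 was below the floor on all 3 arrays.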
